A study of Mus musculus with 17 samples.

Results

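The genes described here were the constitutive proteasome subunit genes of the mouse hippocampus, 34 of the 55450 genes in the read count lists. They were chosen by symbol, as genes named Psma, Psmb, Psmc or Psmd followed by a number that had at least 10 reads in each of the 17 libraries. Of the 38 symbols of this form that were found, 3 were left out by name because they belong to specialised proteasomes (Psmb8, Psmb10 and Psmb11), and Psma8, a testis-type subunit, had 0 to 10 reads per library and did not reach the minimum. The rule itself uses symbols and a read minimum, and no group difference. The members were 7 alpha ring genes (Psma1 to Psma7), 7 beta ring genes (Psmb1 to Psmb7), 6 base ATPases (Psmc1 to Psmc6), 3 other base subunits (Psmd1, Psmd2, Psmd4), 8 lid subunits (Psmd3, Psmd6, Psmd7, Psmd8, Psmd11, Psmd12, Psmd13, Psmd14) and 3 genes that carry a Psmd symbol but encode chaperones of base assembly rather than subunits (Psmd5, Psmd9, Psmd10).

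The 26S proteasome degrades proteins that carry ubiquitin chains. Its 20S core is a barrel of stacked alpha and beta rings with the catalytic sites inside, and its 19S cap recognises, deubiquitinates, unfolds and threads the substrate into the barrel. In neurons it takes part in the turnover of synaptic proteins, and its subunits have to be made in matching amounts because they are assembled into 1 particle.

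RNA-Seq of hippocampi from adult C57BL/6J mice of either sex was compared between 5 control sgLacZ, 6 epileptic sgLacZ and 6 epileptic sgKcna1 libraries. Epileptic mice had received kainic acid in the right amygdala, which causes status epilepticus and later spontaneous seizures, whereas control mice were sham animals. All groups received a pair of AAV9 vectors in the right ventral hippocampus and then doxycycline in the food: 1 vector carried dCas9-VP64, a Cas9 without nuclease activity fused to a transcriptional activator, behind a doxycycline-responsive promoter, and the other carried the guide RNA and a transactivator with tdTomato. The sgKcna1 guide is directed to the promoter of Kcna1, a potassium channel gene, and sgLacZ to a bacterial gene, so sgLacZ mice served as controls for the vectors. The transactivator was driven by the Camk2a promoter, which favours excitatory neurons, whereas RNA came from whole hippocampal tissue, and no control mice with sgKcna1 were analysed here.

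The reads that fell in genes numbered 11839240 in the shallowest and 28311328 in the deepest library. Epileptic sgKcna1 replicate 12 stood apart as the shallowest library with 41.5% unmapped reads, whereas the other 16 libraries had 11.0 to 27.7%. The lowest percentage was in epileptic sgLacZ replicate 4, which was also the deepest library. In 6 libraries more than 20 reads each came from Xist and from Y-linked genes, and 3 of 5 control, 2 of 6 epileptic sgLacZ and 4 of 6 epileptic sgKcna1 libraries had more Y-linked than Xist reads. Kcna1 was at 25.5 to 44.0 CPM (read counts scaled to the library size by TMM) in control libraries, 16.9 to 56.7 in epileptic sgLacZ libraries and 13.9 to 133 in epileptic sgKcna1 libraries, where the median was 19.1, so the groups overlapped and the targeted gene did not separate them (log2 fold change between the epileptic groups 0.32 ± 0.47 SE, edgeR adjusted p = 0.706). Of the markers of hippocampal cell types, 8 of 9 neuronal, 5 of 5 astrocyte, 6 of 6 microglia and 5 of 5 oligodendrocyte genes were found, and none of those found was at 0 in any library.

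Promoter sequences (RefSeq, GRCm38.p6, 250 bases before to 50 after the start) were at hand for 28 of the 34 members. The transcription factors Nfe2l1 and Nfe2l2 are known to drive proteasome genes through antioxidant response elements, whose core TGACNNNGC was searched on either strand. It was found in 5 of the 28 members (17.9%) and in 14.0% of all 27025 genes with a promoter, and CCAAT, a common promoter box, in 11 members (39.3%) and 41.1% of all genes. The windows with TGACNNNGC are printed because they include 2 of the 3 catalytic subunits and Psmc6, 1 of the genes called below. No alpha ring gene is among them. Psmb7, the other catalytic subunit, and Psmb1, another gene called below, had no promoter sequence at hand and were not searched. The core is in capitals, each window reads 5′ to 3′ on the strand of its gene and ends before the start, and in Psmc6 and Psmd12 the core lies on the opposite strand.
Psmb5 (chr14:54618008-54618068, minus strand): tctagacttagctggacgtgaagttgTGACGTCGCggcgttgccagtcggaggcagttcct
Psmb6 (chr11:70525322-70525356, plus strand): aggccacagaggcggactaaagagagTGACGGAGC
Psmc6 (chr14:45329574-45329631, plus strand): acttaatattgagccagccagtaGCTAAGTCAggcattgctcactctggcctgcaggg
Psmd9 (chr5:123228133-123228189, plus strand): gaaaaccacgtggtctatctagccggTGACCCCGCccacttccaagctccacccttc
Psmd12 (chr11:107479278-107479315, plus strand): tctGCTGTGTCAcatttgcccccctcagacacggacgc
In Psmb5, Psmb6 and Psmd9 the core began at positions -47, -9 and -31 relative to the start used for the promoter. For Psmb6 the gene coordinates begin earlier, at chr11:70525324, so its core lies inside the annotated gene. The share of members with the core was close to that of all genes.

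Per kilobase of coding length, the levels of the members in control hippocampi spanned from 28.8 CPM for Psmd1, the largest scaffold of the base, to 429 CPM for Psmb4, a structural beta subunit. The 7 alpha ring genes lay between 162 (Psma5) and 276 (Psma2) CPM per kilobase. The ATPases, which form a hexameric ring, lay between 76.6 (Psmc4) and 206 (Psmc1). Of the chaperones, Psmd5 (37.4) and Psmd10 (42.0) had the lowest levels after Psmd1, and Psmd9 was at 94.3. Psmb7 (100.5 CPM per kilobase) is understated, because a gene on the opposite strand overlaps it: the sum of its 2 strand counts was 2.95 times its unstranded count, whereas this factor was at most 1.06 for the other members.

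The first comparison asked how epileptic hippocampi with the control guide differed from sham hippocampi with the same guide. Proteasome genes were lower: 7 of 34 members passed the test (edgeR quasi-likelihood, adjusted p under 0.05 over 17615 genes), and all 7 were lower in epileptic sgLacZ libraries. Among all tested genes 11.0% passed in either direction and 3.76% passed as lower. The 7 genes that fell were the alpha ring genes Psma1, Psma2, Psma4 and Psma6, the beta ring gene Psmb1, the ATPase gene Psmc6 and the lid gene Psmd14. Of the 34 log2 fold changes 31 were below 0, and their median was -0.36, beside 0.02 for all tested genes. Before adjustment 23 members had p under 0.05 as lower, beside 15.9% of all tested genes. In bulk tissue, fewer cells of a type and less RNA per cell cannot be told apart.

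The genes of the 20S core stood lowest. The median log2 fold change was -0.42 in the alpha ring and -0.46 in the beta ring, and in the cap it was -0.20 for the ATPases, -0.28 for the lid and -0.01 for the other base subunits. The 3 chaperones had a median of -0.36 and ranged from -0.47 (Psmd9) to -0.03 (Psmd5). Over the 14 ring genes together it was -0.44 with 5 genes past the test, and over the 20 cap and chaperone genes -0.22 with 2. The difference between core and cap was not tested.

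**Figure D1:**
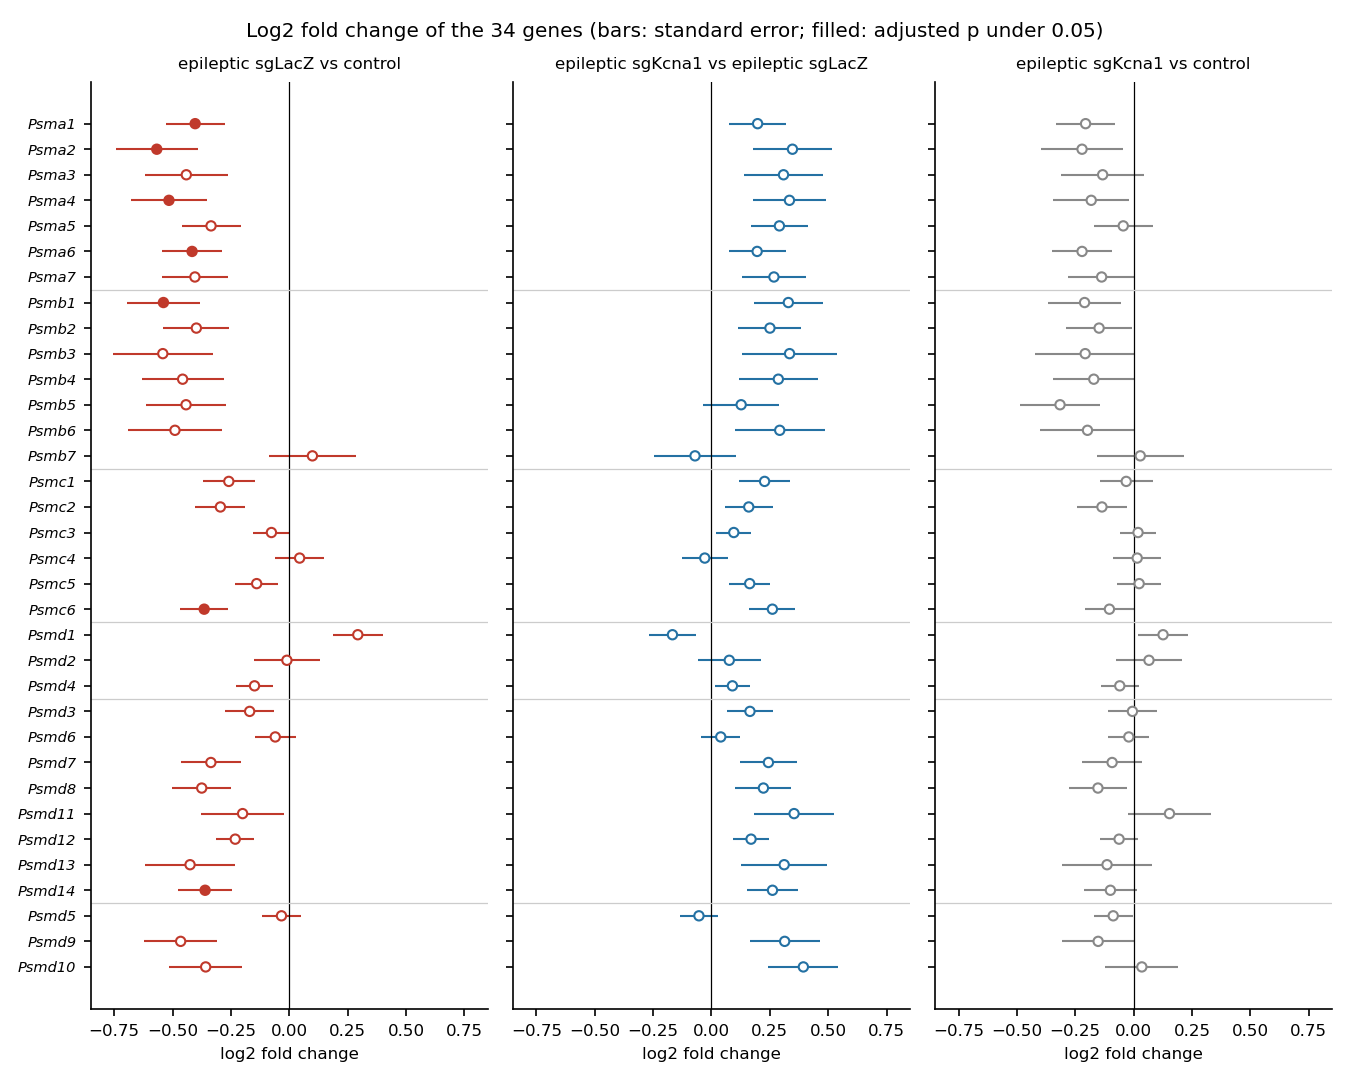
Log2 fold change (horizontal axis) of each of the 34 genes (rows, separated by lines into alpha ring, beta ring, base ATPases, other base subunits, lid and chaperones) in the 3 comparisons, with bars of 1 standard error. Filled points passed the adjusted threshold: 7 did in epileptic sgLacZ vs control and none in the other 2 panels.

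Alpha ring subunits form the outer gates of the barrel. Psma2 (chr13:14613242-14625673 in GRCm38.p6) was at 236, 218, 186, 200 and 181 CPM in the control libraries and at 91.8 to 196 CPM, with a median of 132, in the epileptic sgLacZ libraries. The epileptic sgLacZ libraries thus reached into the control range through 1 library, and the other 5 were below every control. Psma2 fell by 0.57 ± 0.18 on the log2 scale (adjusted p = 0.0464), or by 32.5%.

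Psma4 (chr9:54950781-54958034) was at 148, 155, 132, 134 and 136 CPM in control libraries and at 69.9 to 139, median 94.8, in epileptic sgLacZ libraries. Again 5 of 6 epileptic sgLacZ libraries were below every control library. Psma4 fell by 0.52 ± 0.16 on the log2 scale (adjusted p = 0.0489).

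Psma6 (chr12:55384222-55418459) was at 206, 201, 158, 175 and 177 CPM in control libraries and at 95.9 to 178, median 136, in epileptic sgLacZ libraries. Here 4 of 6 lay below the controls, and the gene fell by 0.42 ± 0.13 on the log2 scale (adjusted p = 0.0455).

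Psma1 (chr7:114264550-114276116) was the only member whose groups did not overlap, beside 2.40% of all tested genes that did not overlap and were lower. It was at 170, 165, 155, 154 and 156 CPM in the control libraries and at 79.8 to 150, median 123, in the epileptic sgLacZ libraries, and fell by 0.40 ± 0.13 on the log2 scale (adjusted p = 0.0486). The other 3 alpha genes had log2 fold changes of -0.34 to -0.44 and did not pass. Of these, Psma5 was at 109 to 127 CPM in control libraries and at 64.1 to 115 in epileptic sgLacZ libraries (adjusted p = 0.0769).

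The beta ring carries the catalytic threonines in Psmb5 (chymotrypsin-like activity), Psmb6 (caspase-like) and Psmb7 (trypsin-like), whereas the other beta subunits are structural. Psmb1 (chr17:15475721-15498276), a structural subunit, was at 294, 280, 250, 262 and 254 CPM in control libraries and at 128 to 276, median 171, in epileptic sgLacZ libraries. In 5 of 6 epileptic sgLacZ libraries it was below every control, and it fell by 0.54 ± 0.15 on the log2 scale (adjusted p = 0.0404). It was the beta gene that passed. Psmb3, another structural subunit, had a difference of -0.54 ± 0.21 and did not pass (adjusted p = 0.0871).

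None of the catalytic subunits passed. Psmb5 was at 138, 125, 94.4, 125 and 123 CPM in control libraries and at 54.7 to 128, median 88.0, in epileptic sgLacZ libraries, a log2 difference of -0.44 ± 0.17 (adjusted p = 0.0806). The groups overlapped, with 3 epileptic sgLacZ libraries below the lowest control. Psmb6 was at 281, 263, 200, 225 and 235 CPM in control libraries and at 105 to 258, median 166, in epileptic sgLacZ libraries, a log2 difference of -0.49 ± 0.20 (adjusted p = 0.0969).

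Psmb7 was the exception among the ring genes, and its value depended on the overlap described above. In unstranded counts it was at 74.9, 81.5, 84.5, 87.4 and 90.6 CPM in control libraries and at 66.8 to 102 in epileptic sgLacZ libraries, a log2 difference of 0.10 ± 0.19 (adjusted p = 0.732). With the 2 strand counts added, which includes the reads shared with the overlapping gene, the difference was -0.53 ± 0.19 (adjusted p = 0.0633). Its direction is therefore uncertain.

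In the base, Psmc6 (chr14:45329823-45349074), an ATPase of the hexameric unfolding ring, had the smallest p of the members. It was at 116, 112, 115, 111 and 104 CPM in control libraries and at 65.4 to 107, median 87.9, in epileptic sgLacZ libraries, where 5 of 6 were below every control. Psmc6 fell by 0.36 ± 0.10 on the log2 scale (adjusted p = 0.0398). The other 5 ATPase genes had differences between -0.30 (Psmc2) and 0.04 (Psmc4).

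Psmd1 (chr1:86064619-86139295), the scaffold of the base that holds the ubiquitin receptor Adrm1, went the other way from most members. It was at 80.6, 89.8, 75.5, 79.2 and 86.8 CPM in control libraries and at 81.2 to 124, median 102, in epileptic sgLacZ libraries. In 5 of 6 epileptic sgLacZ libraries it was above every control, and the difference of 0.29 ± 0.11 did not pass (adjusted p = 0.0690). It was the only member with p under 0.05 as higher before adjustment, beside 18.8% of all tested genes.

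The lid removes ubiquitin chains before degradation, through the metalloprotease Psmd14. Psmd14 (chr2:61711694-61800376) was at 136, 132, 125, 132 and 132 CPM in control libraries and at 74.5 to 132, median 102, in epileptic sgLacZ libraries. In 5 of 6 epileptic sgLacZ libraries it was below every control, and the fall of 0.36 ± 0.11 on the log2 scale sat at the threshold (adjusted p = 0.049999). All 8 lid genes were below 0, from -0.06 for Psmd6 to -0.43 ± 0.19 for Psmd13, a structural lid subunit, which did not pass (adjusted p = 0.126).

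Of the chaperones that help the base to assemble, Psmd9 (-0.47 ± 0.16, adjusted p = 0.0569) and Psmd10 (-0.36 ± 0.16, adjusted p = 0.115) were below 0 without passing. Psmd9 was at 57.5 to 77.7 CPM in control libraries and 32.4 to 62.3 in epileptic sgLacZ libraries. Psmd5 had nearly the same level in both groups, 51.1 to 59.2 and 48.8 to 59.6 CPM, with a log2 difference of -0.03 ± 0.08.

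**Figure D2:**
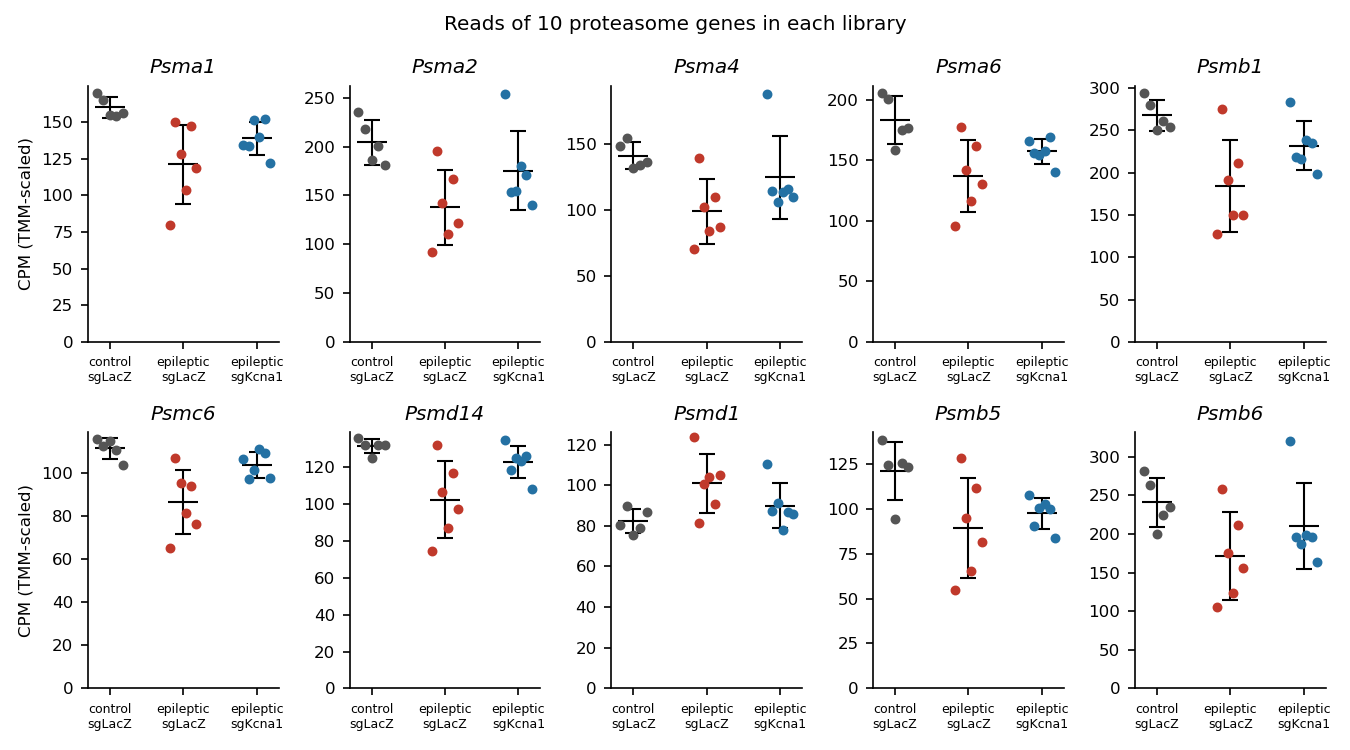
TMM-scaled CPM (vertical axes, from 0) of the 7 genes that passed, of Psmd1 and of the catalytic genes Psmb5 and Psmb6 in each library, by group. Bars show the mean ± SD (n = 5, 6 and 6); for Psma1 all 6 epileptic sgLacZ points lie below the control points, and in the other genes that passed 1 or 2 points reach the control range.

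The number of calls depended on single libraries and on the settings. The number of members past the threshold was 0 without any 1 of the 5 control libraries, without epileptic sgLacZ replicate 4, 7 or 9, and without epileptic sgKcna1 replicate 10, which is not part of this comparison but shares the estimate of spread. In these fits no gene of all those tested passed, except 519 without control replicate 15 and 1026 without epileptic sgKcna1 replicate 10. The number of members was 1 or 2 without epileptic sgLacZ replicate 6 and without epileptic sgKcna1 replicate 1, 2, 3 or 11. Of all tested genes 952 to 1524 passed there. It was 23 members without epileptic sgKcna1 replicate 12, where 4777 of 17608 tested genes passed. Without epileptic sgLacZ replicate 5 it was 24 members and 5526 of 17650 tested genes. DESeq2 called 13 members and 3686 of 17615 tested genes. The calls over all genes thus varied in the same fits. In all of these fits 30 or 31 of the 34 differences were below 0. The fits share most of their libraries and the genes share every library, so these counts are not separate observations.

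The epileptic sgLacZ libraries differed among themselves. The mean log2 CPM over the 34 members, relative to the control mean, was -0.65, 0.01, -0.22, -0.50, -0.12 and -0.38 in epileptic sgLacZ replicates 4, 5, 6, 7, 8 and 9. It lay between -0.10 and 0.11 in the control libraries. The 3 epileptic sgLacZ libraries with the lowest means, replicates 4, 7 and 9, also had the lowest percentages of unmapped reads of all 17 libraries, 11.0, 15.8 and 17.2%.

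Across the 6 epileptic sgLacZ libraries the mean rose in the order of the percentage of unmapped reads. The 3 libraries closest to each other in unmapped reads were epileptic sgLacZ replicate 6 (19.5%), epileptic sgKcna1 replicate 2 (19.1%) and control replicate 15 (19.5%). Their means were -0.22, -0.12 and -0.10. Epileptic sgLacZ replicates 5 and 8 (24.1 and 23.8%) had means of 0.01 and -0.12. Control replicates 16 and 23 (both 23.1%) had means of -0.05 and -0.01. With the percentage of unmapped reads as a covariate, no member passed, the median log2 fold change was -0.19, and 31 of 34 were still below 0. With sex as a covariate, no member passed and the median was -0.35. The labels give no sex per sample, so each library was assigned by the larger of its Xist and Y-linked read numbers. This includes the 6 libraries with more than 20 reads of each, where the assignment is uncertain. The part of unmapped reads or sex in the result was not tested beyond these fits.

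**Figure D3:**
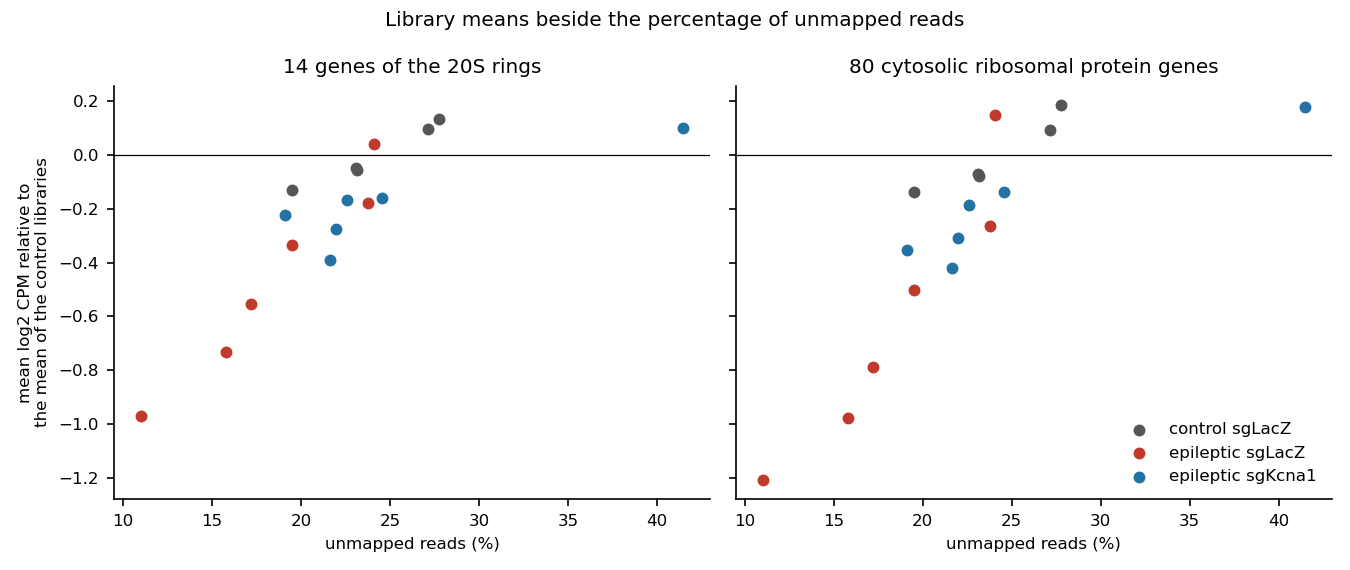
Mean log2 CPM of each library relative to the mean of the control libraries (vertical axis) beside its percentage of unmapped reads (horizontal axis), for the 14 genes of the 20S rings and for 80 cytosolic ribosomal protein genes. In both panels epileptic sgLacZ replicate 4, with 11.0% unmapped reads, is the lowest point.

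Other complexes of the cell were lower in the same libraries. The median log2 fold change was -0.53 for 80 cytosolic ribosomal protein genes (6 called lower), -0.54 for 80 nuclear oxidative phosphorylation genes (11 called lower) and -0.36 for 73 mitochondrial ribosomal protein genes (10 called lower and 1 higher). In epileptic sgLacZ replicate 4 the mean of the cytosolic ribosomal protein genes was -1.21 relative to the control mean, and that of the 14 ring genes was -0.97.

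Among the members, the size of the difference went with coding length. Spearman's rho between coding length and log2 fold change was 0.76 across the 34 members (0.79 without Psmb7) and 0.43 across 14615 tested genes with a coding length, as a description across genes that share libraries. Of the 16 members with up to 900 coding bases, including all 14 ring genes, 15 were below 0 with a median of -0.44, and the median of all 3900 genes of that length was -0.22. Between 900 and 1500 bases the median was -0.25 for 14 members and 0.03 for 4061 genes. Above 1500 bases it was -0.02 for 4 members and 0.21 for 6654 genes. In each class the median of the members was lower than that of all genes of that length. Psmb7, Psmc4 and Psmd1 each lay above the median of all genes in their class. Psmd1, the longest member, had the highest difference. The bounds of these classes were chosen with the values known.

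**Figure D4:**
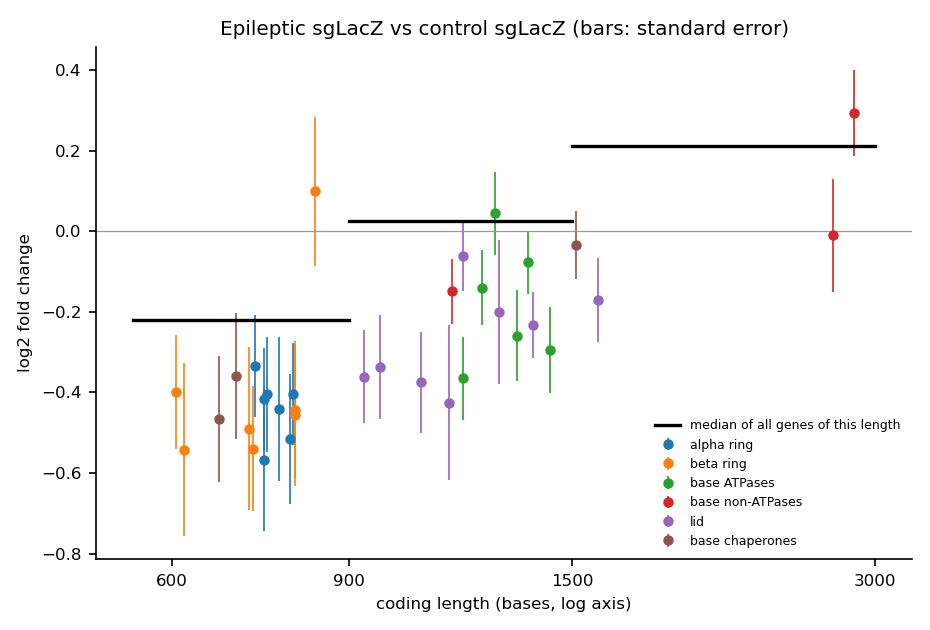
Log2 fold change in epileptic sgLacZ vs control libraries (vertical axis, bars of 1 standard error) beside the coding length of each of the 34 genes (horizontal axis, log scale), coloured by part of the proteasome. Black lines give the median of all tested genes in the 3 length classes, -0.22, 0.03 and 0.21 from short to long.

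Further genes of the pathway were read from lists of 38 symbols, of which 35 were found and tested; 2 of the others are alternative names of genes that were found, and Psmb9 was not matched. Subunits whose symbols do not follow the pattern were Shfm1, a small lid subunit also named Sem1, at 102 to 168 CPM in control and 39.5 to 131 CPM in epileptic sgLacZ libraries (log2 difference -0.84 ± 0.27, adjusted p = 0.0520), and the ubiquitin receptor Adrm1, with a difference of 0.26 ± 0.14 (adjusted p = 0.183). Neither passed.

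The 5 chaperones of 20S assembly were all below 0, with a median of -0.61, and none passed. Pomp, which accompanies the maturing core, was at 200.5 ± 14.6 CPM (SD, n = 5) in control and 144 ± 41.8 CPM (SD, n = 6) in epileptic sgLacZ libraries (log2 difference -0.48 ± 0.16, adjusted p = 0.0541). Psmg2 and Psmg4, which help to arrange the alpha ring, had differences of -0.61 ± 0.23 and -0.63 ± 0.24.

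The alternative activators Psme3 and Psme4 and the inhibitor Psmf1 were all above 0, by 0.19 ± 0.08, 0.42 ± 0.17 and 0.35 ± 0.17. Each had p under 0.05 before adjustment and none passed. Of the cap-associated deubiquitinases and ligase, Usp14, Uchl5 and Ube3c, none passed and their differences lay between -0.20 and 0.14. Of the transcription factors and their processing enzymes, Nfe2l1 was at 242 to 249.6 CPM in control and 247 to 370 CPM in epileptic sgLacZ libraries (0.28 ± 0.10, adjusted p = 0.0625), Ddi2, the protease that activates it, had a difference of 0.30 ± 0.18, and Ngly1, the enzyme that removes its sugars, one of -0.13 ± 0.10. None of these 4 genes, Nfe2l2 included, passed.

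Among 6 ubiquitin and activating enzyme genes none passed. Rps27a, which encodes ubiquitin fused to a ribosomal protein, had a difference of -0.78 ± 0.25 (adjusted p = 0.0510), and Uba1, the main activating enzyme, had 0.48 ± 0.16 (adjusted p = 0.0598). Among genes for shuttle factors and the p97 segregase, Nploc4, a cofactor of p97, was at 41.8 to 49.9 CPM in control and 48.7 to 75.0 CPM in epileptic sgLacZ libraries, and rose by 0.44 ± 0.10 (adjusted p = 0.0330). Among all tested genes 7.26% passed as higher.

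In inflammation the constitutive catalytic subunits can be replaced by the interferon-induced Psmb8, Psmb9 and Psmb10. The ratio of the induced to the constitutive gene was taken for Psmb8 and Psmb10, because Psmb9 was not matched to an identifier. None of the 4 tested genes of the immunoproteasome and its activator passed in epileptic sgLacZ vs control libraries. Psmb8 shares reads with the opposite strand, its strand counts adding up to 1.88 times its unstranded count, so its level is uncertain. In unstranded counts it was low, at 4.60 to 7.85 CPM in control, 1.77 to 16.4 in epileptic sgLacZ and 3.25 to 12.9 in epileptic sgKcna1 libraries. There were 14.5 to 27.3 reads of Psmb5 for each read of Psmb8 in control libraries and 7.82 to 30.9 in epileptic sgLacZ libraries, so the groups overlapped (difference in mean log2 ratio 0.27, exact permutation test over libraries, two-sided p = 0.476, adjusted over 6 tests 0.799). With both strand counts added there were 7.65 to 14.9 reads in control and 4.52 to 14.3 in epileptic sgLacZ libraries, and the difference was 0.46 (exact permutation p = 0.182, adjusted 0.476).

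The log2 ratio of Psmb10 to Psmb7 had a mean of 0.36 ± 0.35 (SD, n = 5) in the controls and of -0.46 ± 0.50 (SD, n = 6) in the epileptic sgLacZ libraries. The difference of -0.82 did not pass the adjusted threshold (exact permutation p = 0.0216, adjusted 0.130). With both strand counts added it was -0.16 (exact permutation p = 0.238), so its size depended on how the overlap at Psmb7 was counted. Between the epileptic groups the difference in this ratio was 0.81 (exact permutation p = 0.0628, adjusted 0.188), and 0.28 with both strand counts added (exact permutation p = 0.0476, adjusted 0.286). For epileptic sgKcna1 against control it was -0.01 (exact permutation p = 0.944).

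The second comparison asked what the sgKcna1 guide changed in epileptic hippocampi. No member passed, and no gene of the 17615 tested did by edgeR (0%, smallest adjusted p = 0.0815), with 3387 at unadjusted p under 0.05. By unadjusted p under 0.05, 8 of 34 members were higher in epileptic sgKcna1 libraries, beside 8.69% of all tested genes, and none was lower. Of the 34 log2 fold changes 30 were above 0, with a median of 0.24, beside -0.01 for all tested genes. DESeq2 called 143 genes and limma voom 12, and neither called a member, with 11 and 18 members at unadjusted p under 0.05. The share of all tested genes at that p in the DESeq2 and voom fits is not given here, so these member counts have no background beside them. Because this comparison shares the epileptic sgLacZ libraries with the first, an opposite sign in the pair is not a separate observation.

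The 3 members with the smallest p, none past the test, were Psmc6, Psmd10 and Psma5. Psmc6 was at 97.2 to 111 CPM, median 104, in epileptic sgKcna1 libraries and at 65.4 to 107, median 87.9, in epileptic sgLacZ libraries (0.26 ± 0.10, adjusted p = 0.216). Psmd10, the chaperone also known as gankyrin, was at 24.0 to 40.9 CPM, median 29.5, against 16.8 to 28.4, median 22.6 (0.39 ± 0.15, adjusted p = 0.217), with 4 of 6 sgKcna1 libraries above every sgLacZ library. For Psma5 the levels were 91.1 to 136 CPM, median 114, against 64.1 to 115, median 94.1 (0.29 ± 0.12, adjusted p = 0.228).

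The catalytic subunits did not pass either. Psmb5 was at 83.5 to 108 CPM, median 100.2, in epileptic sgKcna1 libraries (0.13 ± 0.16 against epileptic sgLacZ), within the range of the epileptic sgLacZ libraries. Psmb6 was at 164 to 321 CPM, median 196 (0.29 ± 0.19). The highest value came from replicate 12, the library with the most unmapped reads. Psmb7 had a difference of -0.07 ± 0.18, and of 0.38 ± 0.18 with both strand counts added, so its direction was uncertain here too.

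Epileptic sgKcna1 replicate 12 had the highest mean of all libraries over the members, 0.18 relative to the control mean, whereas the other 5 sgKcna1 libraries lay between -0.27 and -0.10. Without it the median log2 fold change of this comparison was 0.14, no member passed, and 2 had p under 0.05 before adjustment. With unmapped reads as a covariate the median was 0.04, and no member had p under 0.05. The share of all tested genes at p under 0.05 in either fit is not given here. Without epileptic sgLacZ replicate 5, whose members were at control level, 3 members passed, Psmb1, Psmc6 and Psmd14. In that fit 1508 of 17650 tested genes passed, a share close to that of the members.

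The ribosomal and respiratory genes were again placed like the proteasome genes. The median log2 fold change between the epileptic groups was 0.35 for the cytosolic ribosomal protein genes, 0.19 for the mitochondrial ones and 0.28 for the oxidative phosphorylation genes, and none was called. Spearman's rho with coding length was -0.66 across the 34 members and -0.36 across 14615 genes, again as a description. None of the 35 genes of the further lists was called in this comparison or in the last.

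The last comparison set epileptic sgKcna1 against control sgLacZ, which differ in kainic acid and in the guide, so that these cannot be told apart. In the edgeR fit of all libraries without a covariate, no member and no other gene passed (0%). No member had p under 0.05 before adjustment in that fit, beside 6.77% of all tested genes. DESeq2 called 39 genes and limma voom 71, and neither called a member, with 0 and 13 members at unadjusted p under 0.05. With unmapped reads as a covariate edgeR called 266 of 17615 tested genes and no member, and 14 members had p under 0.05 before adjustment. How many of all tested genes had p under 0.05 in these alternative fits is not given here. The median log2 fold change of the members was -0.10, with 26 of 34 below 0. It was -0.19 for the 14 ring genes and -0.05 for the 20 cap and chaperone genes.

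The members with the smallest p in this comparison were Psmb5 (-0.32 ± 0.17, adjusted p = 0.766), Psma6 (-0.22 ± 0.13, adjusted p = 0.766) and Psma1 (-0.21 ± 0.13, adjusted p = 0.768). For Psma1, the sgKcna1 libraries were at 122 to 152 CPM and did not overlap with the control libraries at 154 to 170, beside 0.573% of all tested genes that did not overlap and were lower. The gap was narrow, from 152 CPM in the highest sgKcna1 library to 154 CPM in the lowest control, and Psma1 did not pass.

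Markers of hippocampal cell types were read in the same fit. In epileptic sgLacZ vs control libraries 1 of 8 neuronal markers (Slc17a7), 2 of 5 astrocyte markers (Gfap and Aldh1l1) and 1 of 6 microglia markers (Csf1r) were called higher, beside 7.26% of all tested genes, and 1 of 4 ependymal markers (Tmem212) lower, beside 3.76%. Other markers of these lists had differences of the opposite sign without passing: 4 of 8 neuronal markers (Rbfox3 -0.31, Snap25 -0.26), 1 of 5 astrocyte markers (S100b -0.67) and 4 of 6 microglia markers were below 0. The summed CPM of the neuronal markers was 7232 to 7775 in control, 6760 to 8972 in epileptic sgLacZ and 6943 to 8333 in epileptic sgKcna1 libraries. That of the astrocyte markers was 1046 to 1093, 1008 to 1407 and 1009 to 1447, and that of the microglia markers 281 to 330, 243 to 419 and 296 to 474. The oligodendrocyte markers, of which none was called, summed to 6123 to 8768, 4541 to 6747 and 2612 to 10007 CPM. No endothelial or choroid plexus marker was called, and choroid plexus markers spread from 291 to 12512 CPM over the libraries. The ranges of the epileptic sgLacZ and control libraries overlapped for each list, and their part in the levels of the proteasome genes was not tested.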

How the data were processed

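RNA-Seq was done on polyadenylated RNA from 17 hippocampal samples. The submitters' processing notes name STAR 2.7, DESeq2 and mm10, and the authors deposited raw counts per gene, not normalized, for either strand and for each strand. The labels name a kit without strand information and the study's methods a stranded kit; the 2 strand totals were equal (ratio 0.994 to 0.998), so the unstranded counts were used. In these, reads inside 2 genes on opposite strands are counted for neither, and reads mapping to several places are left out. The annotation release was not given in the sources used here.

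Groups and replicate numbers were taken from the labels. Genes were filtered by expression in groups, scaled by TMM and fitted in edgeR 4.0.16 (R 4.3.3) with the 3 groups together; the quasi-likelihood F test was two-sided, with Benjamini-Hochberg adjustment over 17615 genes and a threshold of 0.05. Ratios of genes were compared by two-sided exact permutation tests, 6 in all because Psmb9 was not matched. SE is the fold change divided by the root of F. Log2 CPM used a prior count of 2, and ratios of genes a pseudocount of 1. Symbols were matched to identifiers for 32620 genes. Coding lengths came from protein-coding transcripts of an older annotation and coordinates from GRCm38.p6 by symbol. DESeq2 1.42.0 and limma 3.58.1 (voom) were alternatives, with other scaling, filters, strand counts, covariates and libraries left out. The fit was also run on simulated counts with made changes larger than those of the members. Genes varied independently there, so that run cannot show how far the calls here depend on single libraries.

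Members and lists were chosen with earlier results of these data known. Named were the catalytic subunits, the 3 base chaperones, the largest called changes (or the 3 smallest p where none was called), the largest change of each structural group and up to 3 genes of each further list by p. Some genes of the further lists are not reported here. Psmd14, members at the ends of a range and the coding length classes were described after their values were seen. Whether samples were separate animals is not stated sample by sample, so p-values measure the spread between these samples. No pair of libraries of a group agreed within sampling noise (40 pairs, lowest chi-square per degree of freedom 8.67). A gene with 3 reads had 0.106 CPM in the deepest and 0.253 CPM in the shallowest library, for counting error only.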

Additional observations from a re-analysis of the deposited data

Results flagged for a closer look

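In 48 groups of libraries, the 3 groups of each of 16 named members, the gap between the highest or lowest library and its neighbour was compared with the range of the group by Dixon's 95% limit, which chance passes in about 1 of 20 groups. The limit was passed 10 times, and 8 of these concerned epileptic sgKcna1 replicate 12, the library with 41.5% unmapped reads. It was the highest of its group for Psma2 (254 CPM), Psma4 (188 CPM), Psmb3 (244 CPM), Psmb6 (321 CPM), Psmd13 (265 CPM), Psmd9 (79.99 CPM) and Psmd10 (40.9 CPM). It was the lowest for Psmb7, at 36.1 CPM in unstranded counts. The other 2 were in control replicate 13, the control library with the most unmapped reads (27.7%), which was the highest control for Psmd9 (77.7 CPM) and Psmd10 (38.1 CPM). The part of unmapped reads in these values was not tested.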

How the results depend on the processing

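In epileptic sgLacZ vs control libraries, 7 members were called. The count was 13 with DESeq2, 25 with limma voom and sample weights, 3 without a filter on low counts, 0 with percent unmapped and 0 with sex as a covariate, and between 0 and 24 when 1 library was left out; it was 6 or 7 with other scaling, with the compared groups alone, with both strand counts and without the 3 base chaperones. Over all genes, the calls (1940) were 3686 with DESeq2, 7301 with voom, 428 with percent unmapped, 516 with sex, 3045 with the compared groups alone, and 0 to 5526 with 1 library left out. Between the epileptic groups 0 members were called in every fit except 3 without epileptic sgLacZ replicate 5 (leave-one-out range 0 to 3). That fit called 1508 of 17650 tested genes. In epileptic sgKcna1 vs control 0 members were called in every fit. Among the 16 named members and the ratios, no called value changed sign. The Psmb10 to Psmb7 difference ranged from -0.997 to -0.687 in epileptic sgLacZ vs control and from 0.400 to 0.985 between the epileptic groups when 1 library was left out, and passed in both without epileptic sgLacZ replicate 5 (exact permutation, adjusted p = 0.0260). No paired analysis was possible because the groups share no replicate numbers. The causes of these changes were not tested. The lowest read count of a member in a library was 372.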
